A study of Mus musculus with 6 samples.

Results

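The genes of the 26S proteasome were followed in gastrocnemius muscle of male C57BL/6 mice that lacked IRF4 in muscle or made an excess of it. The count table was searched for symbols that start with Psma, Psmb, Psmc, Psmd, Psme, Psmf or Psmg and a digit, the immunoproteasome genes Psmb8, Psmb9 and Psmb10 being left out, and 47 symbols were found. A sum of at least 60 counts over the 6 libraries was required, which kept 45 of the 24054 genes in the table. Psma8, a testis form of an alpha subunit, had 1 count and Psmb11, the thymus form of a catalytic subunit, had 43.73, so both were left out. The kept genes nearest to the limit were Psme2b with 92.18 counts and Psmc3ip with 182 counts. No measured difference between genotypes was used in the choice. Psmc3ip was caught by its letters only, since it encodes a partner protein of Psmc3 that works in meiotic recombination and is not a proteasome subunit.

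MI4KO mice (n = 3 libraries) carried floxed Irf4 and Myl1-cre, which deletes it in muscle fibres. MI4OE mice (n = 3 libraries) carried Myl1-cre and an IRF4 transgene at the Rosa26 locus behind a stop cassette that Cre removes. Both groups carried Cre, and flox or wild-type gastrocnemius was not analysed here, so each value compares a knockout with an overexpressor. The diet is uncertain, because a high fat diet is named in the labels although the study describes its mice on a chow diet. The labels give no age, and nothing in them says whether the libraries came from separate animals, so p-values measure only the spread between these libraries. Myl1-cre acts in muscle fibres, whereas whole muscle also holds vessels, connective tissue and blood.

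The proteasome is the chamber in which cells break down proteins marked with ubiquitin. Its core is a stack of alpha and beta rings, and 3 of the beta subunits cut the peptide chain. A cap of ATPases and non-ATPase subunits sits on the core, binds the ubiquitin chain, removes it and feeds the unfolded protein in. Smaller activators can take the place of the cap, and dedicated chaperones assemble the particle. In muscle the pathway is known for the loss of myofibrillar protein during fasting, disuse and disease. The 45 genes comprised 7 alpha ring genes, 7 beta ring genes, 6 cap ATPases, 11 cap non-ATPases, 6 genes for activators and an inhibitor, 7 assembly chaperones and Psmc3ip.

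A pair of the activator genes is nearly identical, and their sequences bear on the measurement because RSEM divides a read among all transcripts that it matches. Psme2 encodes the beta subunit of the PA28 activator, and Psme2b is a close copy. The coding sequences, taken from the GENCODE M21 transcripts, were 720 bases long in both and differed at 5 bases, an identity of 99.3%. Of the 671 windows of 50 bases in the Psme2b coding sequence, 467 (69.6%) occurred unchanged in Psme2, and 50 bases was the read length. The stretch from coding base 454 to base 543 is shown because it holds 3 of the 5 differences, which are in capitals.

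Psme2: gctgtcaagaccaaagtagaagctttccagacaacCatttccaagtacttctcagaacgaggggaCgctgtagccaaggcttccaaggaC

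Psme2b: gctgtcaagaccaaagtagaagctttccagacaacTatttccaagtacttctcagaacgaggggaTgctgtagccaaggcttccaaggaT

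Promoters were examined because the rule did not use them and because IRF4 is a transcription factor. RefSeq windows on GRCm38.p6, from 250 bases before to 50 bases after the gene start, were matched for 38 of the 45 genes. Psmb1, Psmb2, Psmb7, Psmc3, Psmd3, Psmd7 and Psmg2 were not matched. The letters TGACNNNGC, the antioxidant response element to which the factors NFE2L1 and NFE2L2 can bind, were searched on both strands. They occurred in 6 of the 38 genes (15.8%), or 6 of their 41 windows, and in 12.4% of all 32851 windows. Stretches of 60 bases, read 5′ to 3′ along the gene's own strand with the element in capitals, are shown for the catalytic subunits Psmb5 and Psmb6 and for the chaperone Psmd9. They lie at chr14:54618009-54618068 on the minus strand, chr11:70525297-70525356 on the plus strand and chr5:123228130-123228189 on the plus strand.

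Psmb5: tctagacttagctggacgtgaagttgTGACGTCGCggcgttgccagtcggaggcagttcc

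Psmb6: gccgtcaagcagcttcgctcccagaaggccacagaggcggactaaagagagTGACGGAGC

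Psmd9: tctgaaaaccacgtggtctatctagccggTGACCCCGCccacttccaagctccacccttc

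The interferon-stimulated response element is written GAAANNGAAA and is known as a site for the IRF family. It occurred in 5 of the 38 genes (13.2%), or 5 of their 41 windows, and in 3.44% of all windows. The 5 genes were Psmb3, Psmd4, Psmd9, Psme1 and Psmg4. A CCAAT box, the letters CCAAT on either strand, was held by 13 of the 38 genes (34.2%), or 13 of their 41 windows, and by 37.4% of all windows. These letter matches describe the windows and were not tested for binding. The stretches around the response element of the beta subunit Psmb3, the ubiquitin receptor Psmd4 and Psmd9 are shown because these 3 lie before the gene start. They lie at chr11:97703246-97703305 on the plus strand, chr3:95042660-95042719 on the minus strand and chr5:123228006-123228065 on the plus strand, and the match of Psmb3 and Psmd4 reads on the opposite strand.

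Psmb3: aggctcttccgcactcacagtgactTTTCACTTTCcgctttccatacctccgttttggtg

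Psmd4: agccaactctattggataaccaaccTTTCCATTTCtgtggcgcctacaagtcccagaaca

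Psmd9: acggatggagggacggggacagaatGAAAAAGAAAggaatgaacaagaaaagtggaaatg

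Irf4 had 6, 0 and 2 counts in MI4KO replicates 1, 2 and 3, and 2864, 10557 and 5911 counts in MI4OE replicates 1, 2 and 3. Total expected counts ran from 18828605 to 29239585 per library, and MI4OE replicate 1 was the shallowest. Muscle fibre markers (8 of 8 detected) summed to between 161700 and 294400 CPM, the counts scaled by sequencing depth. MI4OE replicate 1 stood apart in its slow-fibre markers, which summed to 5840 CPM there, 490 CPM in MI4OE replicate 3 and 0.908 to 63.7 CPM elsewhere. MI4KO replicate 1 stood apart in the sum of 12 genes of the fasting and glucocorticoid response, 1376 CPM there and between 354 and 558 CPM elsewhere. Not every gene of this list was highest there. Per1 was higher in MI4KO replicate 2 (94.8 against 84.1 CPM) and Angptl4 in MI4KO replicate 3 (13.7 against 6.18 CPM). Fibroblast markers (5 of 5) summed to 157 to 229 CPM in MI4KO and 275 to 379 CPM in MI4OE, and endothelial markers (5 of 5) to 75.7 to 124 CPM and 144 to 290 CPM. Adipocyte markers (5 of 5) summed to 46.8 to 268 CPM in MI4KO and 2.85 to 20.5 CPM in MI4OE. Macrophage markers overlapped, at 35.1 to 58.5 CPM and 25.9 to 49.7 CPM, and the lymphocyte markers were below 1 CPM. Erythrocyte markers summed to 112 to 173 CPM and 162 to 463 CPM, with Hba-a2 and Hbb-bs at 0 in every library. MI4OE replicate 1 was also the lowest library in the muscle fibre and adipocyte sums and the highest in the fibroblast, endothelial and erythrocyte sums. In such bulk samples, fewer cells of a type and less RNA per cell cannot be told apart, and the part of other cell types in the values below was not tested.

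Levels of different genes were set side by side in TPM, the length-adjusted abundance. The 45 genes took between 0.409% and 0.498% of all counts in a library. Their summed TPM was 5137, 5281 and 5370 in MI4KO replicates 1 to 3 and 5667, 5612 and 5553 in MI4OE replicates 1 to 3, so the groups did not overlap on this scale. The summed CPM, scaled by TMM, was 5046, 3969 and 4380 in MI4KO and 4610, 4341 and 4313 in MI4OE, and the groups did overlap. The separation of the groups was thus seen on the TPM scale only, and no test was made of either sum.

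The most abundant transcript was Psmb7, the trypsin-like catalytic subunit, with a mean of 374 TPM over the 6 libraries. Its values were tight, at 369, 362 and 379 TPM in MI4KO and 380, 375 and 376 TPM in MI4OE. Psmd8, a non-ATPase of the lid, followed with 360 TPM, but it ran from 240 TPM in MI4OE replicate 1 to 436 TPM in MI4OE replicate 2, so the order of these genes was not fixed within the spread. Next came Psmd4 with 261 TPM, Psmc3 (an ATPase) with 255 TPM and Psmb6 (the caspase-like catalytic subunit) with 252 TPM, whose ranges overlapped one another. Psmb5, the chymotrypsin-like catalytic subunit, had 249 TPM and ranged from 216 TPM in MI4KO replicate 2 to 329 TPM in MI4OE replicate 1.

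Core and cap genes did not share a common level, although their proteins are built into the particle in fixed numbers. Among the core genes the lowest was Psma5 with 72.3 TPM, and among the cap genes Psmd14, the deubiquitinase of the cap, with 49.2 TPM and a range from 43.3 to 52.8 TPM. The activators ran from Psme4 with 64.2 TPM and Psme1 with 60.6 TPM through Psme2 (46.2 TPM) and Psme3 (37.2 TPM) to Psme2b (1.08 TPM). By these means over the 6 libraries all lay below the lowest core gene, while Psme4 and Psme1 lay above Psmd14. Single libraries differed. Psme4 was above Psma5 in MI4KO replicate 2 (95.9 against 66.6 TPM), as was Psme1 in MI4OE replicate 1 (95.2 against 80.45 TPM). Psme4 was below Psmd14 in MI4OE replicate 1 (33.3 against 43.3 TPM). The inhibitor gene Psmf1, which encodes PI31, had 6.61 TPM. The chaperones ran from 7.70 TPM for Psmd10 to 22.3 TPM for Psmg2, below every core and cap gene. Psmc3ip had 2.19 TPM.

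**Figure D1:**
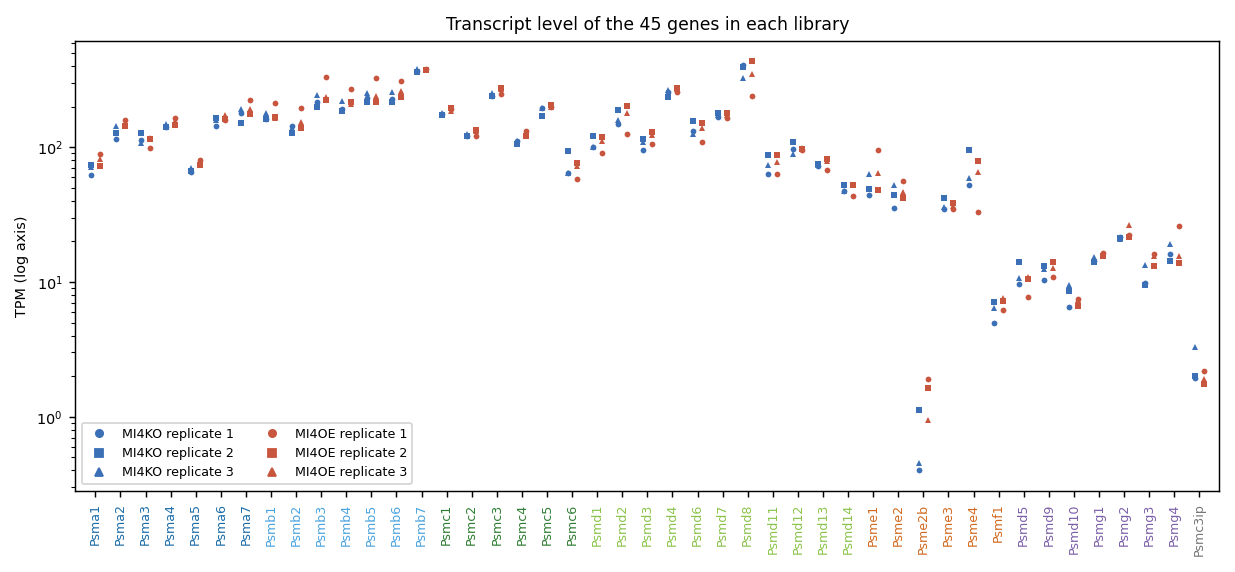
TPM of each gene (log axis) in each of the 6 libraries, MI4KO in blue and MI4OE in red, with gene names coloured by class. Psmb7 at a mean of 374 TPM and Psmd8 at 360 TPM lie at the top, the chaperones lie between 7.70 and 22.3 TPM, and Psme2b at 1.08 TPM lies at the bottom.

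The comparison by genotype addressed which transcripts followed IRF4 in muscle. None of the 45 genes differed at an adjusted p under 0.05 by edgeR's quasi-likelihood test, where 0.0237% of the 12660 genes tested did, and adjusted p ran from 0.654 to 0.998. The tally was also 0 in each of the 15 alternative fits, DESeq2 and edgeR's exact test included. An unadjusted p under 0.05 was reached by 1 gene, Psme2b, against 7.58% of all genes tested. The same gene was the only member at 1.5-fold or more with an unadjusted p under 0.05, against 6.64% of all genes, 4.36% higher and 2.28% lower in MI4OE. All 45 passed the expression filter.

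Most of the genes lay close to no difference. The median size of the log2 fold change, regardless of sign, was 0.11 over the 45 genes and 0.20 over all genes tested. Without MI4OE replicate 1 these sizes were 0.059 and 0.17, and without MI4KO replicate 1 they were 0.15 and 0.21. The signed median was 0.03, with 27 genes higher and 18 lower in MI4OE, while 6327 of the 12660 tested genes were higher. The balance also moved with the scaling, to 37 higher and a median of 0.14 with total counts, where the median of all tested genes was 0.09, and to 33 higher and a median of 0.11 with limma on log2(TPM + 1), where that of all tested genes was 0.04. Without MI4OE replicate 1 only 12 were higher and the median was -0.05, and without MI4KO replicate 2 only 9 were higher and the median was -0.09. For 27 of the 45 genes the 95% interval of the fold change lay inside 1.5-fold in either direction, against 25.9% of all genes. Leaving out a library moved both the count and the share of all genes in the same fit. The count was 8 without MI4KO replicate 3 (10.1% of all genes) and 8 without MI4OE replicate 3 (7.61%). It was 14 without MI4OE replicate 2 (11.8%), 17 without MI4KO replicate 1 (19.1%) and 19 without MI4KO replicate 2 (15.7%). It was 35 without MI4OE replicate 1 (29.8%). For the remaining 18 genes a difference beyond 1.5-fold was not excluded at this number of libraries.

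**Figure D2:**
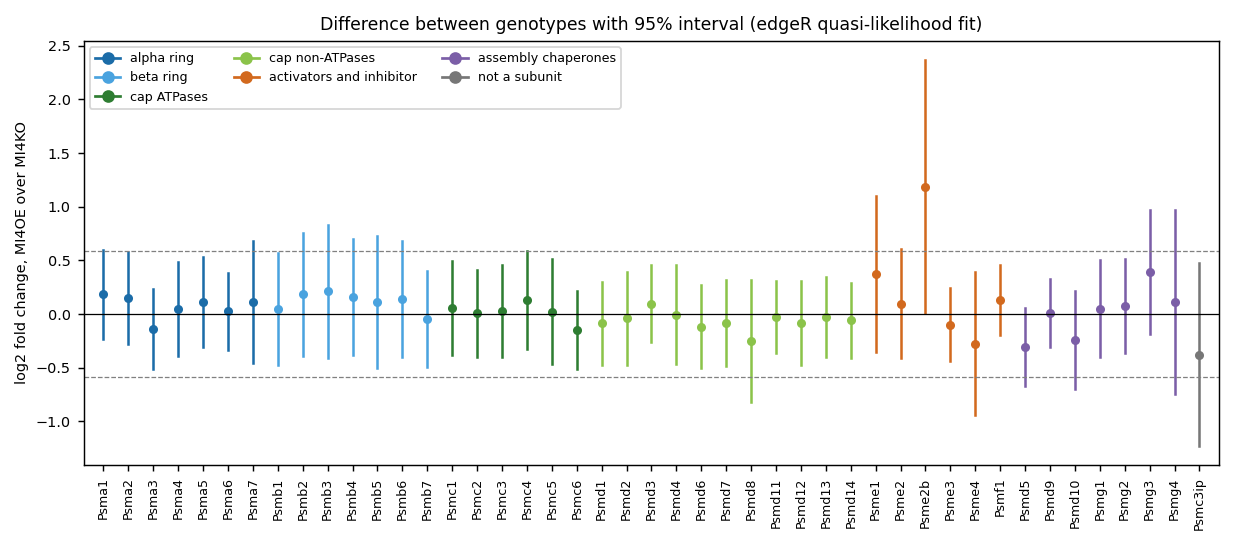
Log2 fold change of MI4OE over MI4KO for each gene, with its 95% interval, coloured by class, and dashed lines at 1.5-fold. The 45 points centre on a median of 0.03, and only Psme2b, at 1.19, has an interval that does not reach 0.

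In CPM the groups did not overlap for 2 of the 45 genes, against 12.8% of all genes tested. Psmd5, a chaperone of the cap base, was at 14.3, 15.1 and 13.2 CPM in MI4KO and 10.1, 11.8 and 12.5 CPM in MI4OE. Each MI4OE library was below each MI4KO library, and the log2 fold change was -0.31 ± 0.16 (SE, adjusted p = 0.722, edgeR's quasi-likelihood test). Psmf1 was at 13.1, 13.6 and 14.1 CPM in MI4KO and 14.5, 14.4 and 15.7 CPM in MI4OE, each MI4OE library lying just above. Its log2 fold change was 0.13 ± 0.14 (SE, adjusted p = 0.874). In TPM the groups overlapped for both genes. Psmd5 was at 9.69 TPM in MI4KO replicate 1 and 10.8 TPM in MI4OE replicate 3. Psmf1 was at 7.15 TPM in MI4KO replicate 2 and 6.2 TPM in MI4OE replicate 1.

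In the core, 12 of the 14 genes were higher in MI4OE. The median log2 fold change was 0.11 and none was called. The alpha ring, the gate of the chamber, had 6 of 7 higher and a median of 0.11, with values from -0.14 for Psma3 to 0.18 for Psma1. The beta ring, which holds the cutting sites, had 6 of 7 higher and a median of 0.14, with Psmb3 highest at 0.21. The direction rested on single libraries. Without MI4OE replicate 1 only 2 of the 14 core genes were higher, 0 of them in the beta ring, and the median was -0.07. Without MI4KO replicate 2 only 4 were higher and the median was -0.04.

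The catalytic subunits show how the libraries spread. Psmb5 was at 134, 89.8 and 122 CPM in MI4KO and 169, 95.4 and 109 CPM in MI4OE. MI4OE replicate 1 was the highest and MI4KO replicate 2 the lowest, with the other 4 libraries between, so the groups overlapped. The means were 115 ± 22.9 CPM and 124 ± 39.1 CPM (SD, n = 3 each), and the log2 fold change was 0.11 ± 0.26 (SE).

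Psmb6 was at 161, 110 and 152 CPM in MI4KO and 194, 127 and 144 CPM in MI4OE, with the same libraries at the ends. Its log2 fold change was 0.14 ± 0.23 (SE). Psmb7 was at 240, 170 and 206 CPM in MI4KO and 220, 185 and 192 CPM in MI4OE, and here MI4KO replicate 1 was the highest. The Psmb7 log2 fold change was -0.05 ± 0.19 (SE), and the adjusted p of the 3 catalytic subunits ran from 0.920 for Psmb6 to 0.974 for Psmb7.

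In the cap, 6 of the 17 genes had higher and 11 had lower values in MI4OE. The median log2 fold change was -0.03 and none was called. The ATPases, which unfold the substrate, had a median of 0.03 with 5 of 6 higher. No ATPase was higher without MI4KO replicate 2, where the median was -0.10, and 2 were higher without MI4OE replicate 1, where it was -0.02. Of the non-ATPases, 10 of 11 were lower with a median of -0.06, the exception being Psmd3 at 0.10. Without MI4KO replicate 1 only 4 of the 11 were lower and the median was 0.02. Scaling by total counts without TMM left 3 of the 17 cap genes lower, and limma on log2(TPM + 1) left 6, against 11 with TMM; the median of all tested genes was 0.09 and 0.04 on these scales.

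Psmd8 had the largest difference of the cap genes, with 440, 305 and 295 CPM in MI4KO and 229, 354 and 291 CPM in MI4OE. MI4KO replicate 1 was the highest of the 6 and MI4OE replicate 1 the lowest, while the other 4 libraries lay from 291 to 354 CPM. The log2 fold change was -0.25 ± 0.25 (SE, adjusted p = 0.858), and it was -0.05 without MI4KO replicate 1 and -0.11 without MI4OE replicate 1. At the other end Psmd4 was at 241, 161 and 208 CPM in MI4KO and 215, 195 and 197 CPM in MI4OE, with a log2 fold change of -0.0055 and a 95% interval from -0.46 to 0.45.

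The spread between libraries was also described by class. Each gene was centred on its own mean log2 CPM over the 6 libraries, and the median of these deviations was taken over a class. For the core it was 0.16, -0.31 and 0.04 in MI4KO replicates 1 to 3, and 0.38, -0.16 and -0.03 in MI4OE replicates 1 to 3. For the cap it was 0.21, -0.15 and -0.02 in MI4KO, and 0.01, -0.02 and -0.03 in MI4OE. The smaller classes did not divide along this line. The beta ring ran from -0.41 in MI4KO replicate 2 to 0.45 in MI4OE replicate 1, and the alpha ring from -0.27 to 0.27 in the same libraries. The cap ATPases ran from -0.28 in MI4KO replicate 2 to 0.205 in MI4KO replicate 1, a range close to that of the alpha ring, and 5 of the 6 were lowest in MI4KO replicate 2. The non-ATPases ran from -0.07 in MI4OE replicate 1 to 0.22 in MI4KO replicate 1.

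The beta ring was the most uniform class in this respect. All 7 of its genes were lowest of the 6 libraries in MI4KO replicate 2, and 6 of 7 were highest in MI4OE replicate 1. Of the 11 non-ATPases, 8 were highest of the 6 libraries in MI4KO replicate 1, and none was highest in MI4OE replicate 1. Over all 45 genes MI4KO replicate 2 was the lowest library for 30. MI4KO replicate 1 is the library with the high fasting-response sum and MI4OE replicate 1 the library with high slow-fibre markers. MI4OE replicate 1 was also at an end of several other marker sums. The part of any of these in the values was not tested.

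**Figure D3:**
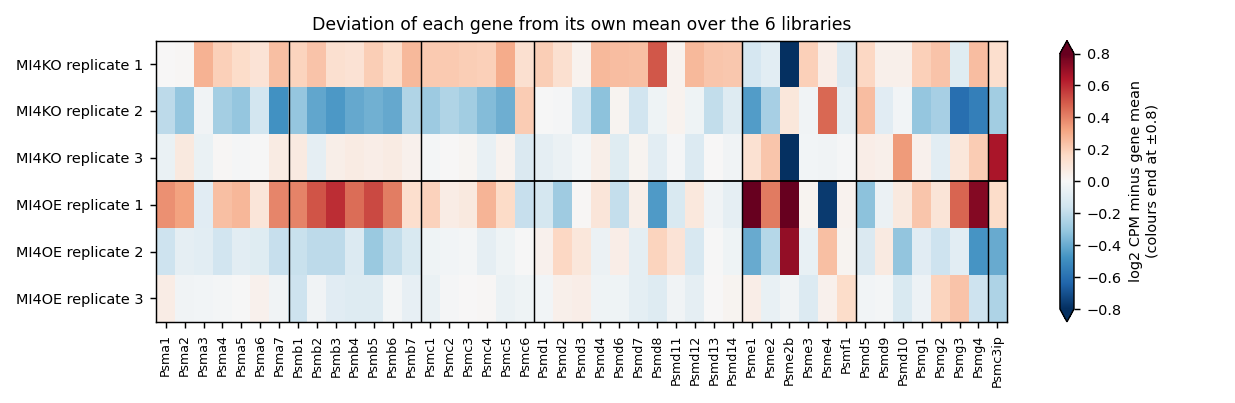
Log2 CPM of each gene minus its mean over the 6 libraries, with libraries as rows and genes as columns in class order (red above the mean, blue below, colours ending at 0.8 in either direction). The beta ring genes are lowest in MI4KO replicate 2 and, for 6 of 7, highest in MI4OE replicate 1, while MI4OE replicate 3 stays near the mean.

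**Figure D4:**
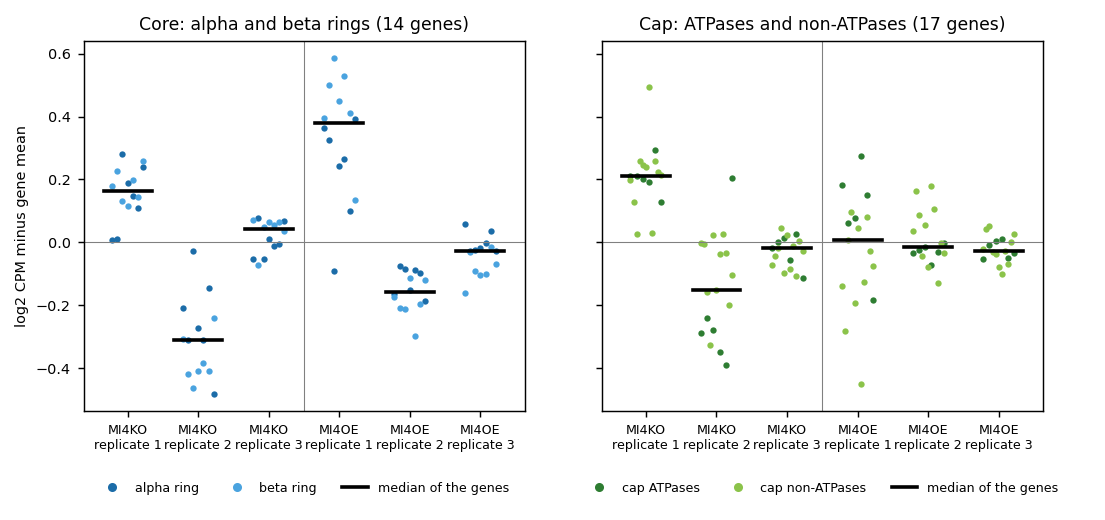
Deviation from the gene mean (log2 CPM) in each library for the 14 core genes and the 17 cap genes, with each gene as a point and the class median as a bar. The core median runs from -0.31 in MI4KO replicate 2 to 0.38 in MI4OE replicate 1, and the cap median from -0.15 to 0.21.

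The balance between core and cap was compared within each library, a measure chosen after the values were seen. The core median minus the cap median was -0.05, -0.16 and 0.06 in MI4KO and 0.37, -0.14 and -0.0011 in MI4OE, so that MI4OE replicate 1 was the highest and the groups overlapped. The ratio of summed core TPM to summed cap TPM was 0.945, 0.885 and 1.04 in MI4KO and 1.30, 0.876 and 0.981 in MI4OE. The difference of the class medians of the log2 fold change was 0.14 with all libraries and -0.03 without MI4OE replicate 1. It was 0.08 without MI4KO replicate 2 and 0.26 without MI4OE replicate 2.

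Among the activators and the inhibitor, 4 of 6 genes were higher in MI4OE and the median log2 fold change was 0.11, or -0.03 without MI4OE replicate 1. Psme2b had 6.96, 14.65 and 8.04 counts in MI4KO and 25.01, 25.40 and 12.12 counts in MI4OE, or 0.285, 0.580 and 0.270 CPM and 1.23, 0.888 and 0.535 CPM. The groups overlapped, since MI4OE replicate 3 lay below MI4KO replicate 2. The log2 fold change was 1.19 ± 0.51 (SE, unadjusted p = 0.0488, adjusted p = 0.654, edgeR's quasi-likelihood test). The unadjusted call was lost without MI4KO replicate 1, MI4KO replicate 3, MI4OE replicate 1 or MI4OE replicate 2, with DESeq2 and with no filter. The counts are estimates for a gene that shares most of its windows with Psme2, as the sequences above show, so the division of reads between the pair is uncertain.

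Psme2 itself was at 20.9, 18.5 and 25.9 CPM in MI4KO and 29.6, 19.0 and 21.3 CPM in MI4OE, with a log2 fold change of 0.10 ± 0.22 (SE). Psme1, the alpha subunit of the same PA28 ring, was at 29.0, 23.3 and 34.6 CPM in MI4KO and 55.7, 24.1 and 33.0 CPM in MI4OE. MI4OE replicate 1 stood above all other libraries for both genes. The Psme1 log2 fold change was 0.38 ± 0.31 (SE, adjusted p = 0.844), and it was -0.02 without that library.

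Psme3 encodes the nuclear PA28 gamma activator, and it was the steadiest of the activators. It was at 67.3, 57.8 and 58.1 CPM in MI4KO and 59.8, 56.6 and 54.7 CPM in MI4OE. The groups overlapped, the log2 fold change was -0.10 ± 0.15 (SE), and the 95% interval from -0.44 to 0.24 lay inside 1.5-fold.

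Psme4 encodes PA200, a large single-chain activator of the nucleus. It was at 254, 336 and 239 CPM in MI4KO and 144, 289 and 251 CPM in MI4OE. MI4OE replicate 1 was the lowest and MI4KO replicate 2 the highest, the reverse of the beta ring genes. The log2 fold change was -0.28 ± 0.29 (SE, adjusted p = 0.867), the groups overlapped, and the log2 fold change was -0.04 without MI4OE replicate 1.

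Among the assembly chaperones 5 of 7 genes were higher in MI4OE and the median log2 fold change was 0.05. The median was -0.09 without MI4KO replicate 2, with 1 of 7 higher, and -0.06 without MI4OE replicate 1, with 3 of 7 higher. Psmg3, a chaperone of alpha ring assembly, was at 5.40, 3.80 and 6.15 CPM in MI4KO and 7.97, 5.45 and 6.76 CPM in MI4OE, with a log2 fold change of 0.39 ± 0.25 (SE, adjusted p = 0.788). The MI4OE libraries were mostly above the MI4KO libraries, but MI4OE replicate 2 lay below MI4KO replicate 3. For Psmd10, or gankyrin, the log2 fold change was -0.24 (adjusted p = 0.843), and for Psmd9 it was 0.01 (adjusted p = 0.994). Psmc3ip, which is no subunit, was at 1.27, 0.951 and 1.81 CPM in MI4KO and 1.28, 0.874 and 0.972 CPM in MI4OE, and its log2 fold change of -0.38 had an adjusted p of 0.857.

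The difference between genotypes was also set against transcript length, a relation noticed after the values were seen. Over the 45 genes the Spearman correlation of the log2 fold change with the longest listed transcript was -0.55, whereas it was -0.03 over the 12660 genes tested. The genes share the same 6 libraries and are not independent replicates. Of the 13 genes with transcripts under 1000 bases, 11 were higher in MI4OE (median log2 fold change 0.11), and all 893 tested genes of this length had a median of 0.08. Of the 10 genes from 1500 to 1999 bases, 3 were higher and the median was -0.04. The core genes are short, with a median of 1016 bases against 1564 bases for the cap, so that length and class cannot be told apart here. The correlation was 0.22 without MI4OE replicate 1 and -0.30 without MI4KO replicate 2.

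**Figure D5:**
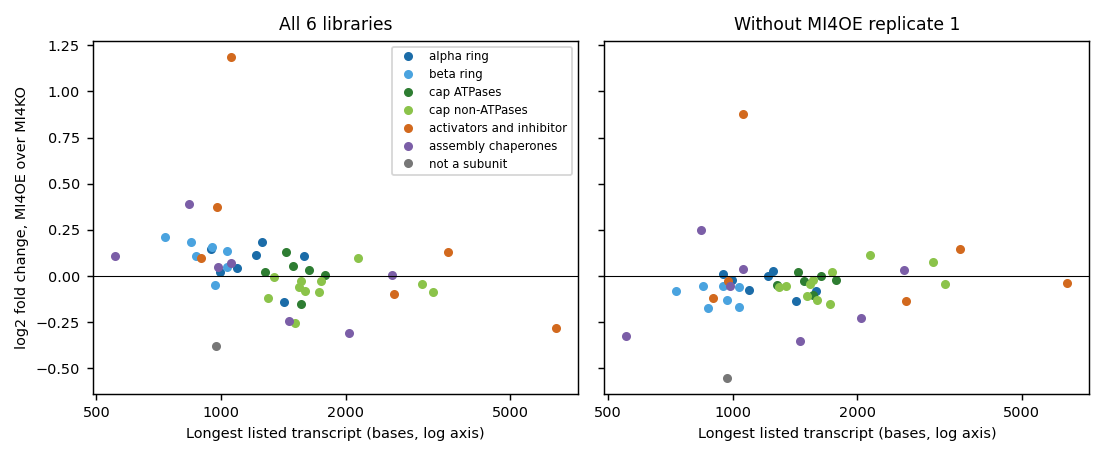
Log2 fold change of MI4OE over MI4KO against the longest listed transcript (bases, log axis) for the 45 genes, coloured by class, with all 6 libraries and without MI4OE replicate 1. The Spearman correlation is -0.55 on the left and 0.22 on the right.

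Transcript forms were listed as a pair for 6 of the 45 genes. The form NM_001282017 took 36.6%, 43.2% and 36.2% of the Psmd4 counts in MI4KO and 46.8%, 44.5% and 39.1% in MI4OE, so the groups overlapped. The form NM_001110515 took 7.69%, 59.7% and 13.1% of the Psmg4 counts in MI4KO and 19.2%, 36.3% and 12.2% in MI4OE. It was the larger share only in MI4KO replicate 2, where Psmg4 had few counts (45.93 and 31.07 for the 2 forms). Within Psme2, NM_001029855 took 20.4% in MI4KO replicate 2 and from 4.77% to 9.59% elsewhere. RSEM estimates these shares from reads that both forms can match, and no test was made of them.

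The genes with and without each set of promoter letters are described by their medians, with no test of the difference. The 5 genes with GAAANNGAAA had log2 fold changes from -0.0055 to 0.38 with 4 of 5 higher and a median of 0.11. The 33 matched genes without it had a median of 0.02. Without MI4OE replicate 1 the values were -0.08 for Psmb3, -0.05 for Psmd4, 0.03 for Psmd9, -0.02 for Psme1 and -0.33 for Psmg4. Without MI4KO replicate 2 they were, in the same order, 0.03, -0.16, -0.04, 0.23 and -0.12, so the direction rested on single libraries. The 6 genes with TGACNNNGC had a median of -0.04, from -0.28 for Psme4 to 0.14 for Psmb6, and the 32 without it had 0.04. The 13 genes with CCAAT had a median of 0.01 and the 25 without it 0.05. None of the genes in these groups was called.

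The 3 immunoproteasome genes replace the catalytic subunits in interferon-exposed and immune cells. Psmb8 was at 2.95, 8.80 and 9.13 CPM in MI4KO and 5.31, 3.67 and 3.53 CPM in MI4OE, and Psmb9 at 0.737, 3.41 and 4.77 CPM and 2.36, 1.29 and 1.68 CPM. MI4KO replicate 1 was the lowest of the 6 libraries for both, so the groups overlapped although the other MI4KO libraries were the highest. Their log2 fold changes were -0.74 (standard error 0.42, adjusted p 0.754) and -0.75 (standard error 0.605, adjusted p 0.843). For Psmb10 the log2 fold change was 0.04 (adjusted p = 0.992). Without MI4KO replicate 1 the values of Psmb8 and Psmb9 were -1.11 (unadjusted p = 0.00333, adjusted p = 0.452) and -1.22 (unadjusted p = 0.0107, adjusted p = 0.643) in the same edgeR test. Both then passed the 1.5-fold criterion with its unadjusted p, as did 628 of the 12875 genes in that fit, and none of the 3 passed at an adjusted p. The differences shrank when another MI4KO library was left out. Without MI4KO replicate 3 the log2 fold changes of Psmb8 and Psmb9 were -0.51 and -0.24. Without MI4KO replicate 2 they were -0.55 and -0.65. In TPM the 3 genes had means of 8.15, 5.60 and 15.2, against 249, 252 and 374 for the constitutive Psmb5, Psmb6 and Psmb7.

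The rest of the pathway was followed in gene lists, in which no gene had an adjusted p under 0.05. Of the 11 tested regulators of proteasome genes, 4 were higher and 7 lower, with a median log2 fold change of -0.10. Nfe2l1, the factor that drives proteasome genes when proteasome activity is short, was at 622, 738 and 716 CPM in MI4KO and 862, 900 and 833 CPM in MI4OE. Its groups did not overlap in CPM, and its log2 fold change was 0.32 ± 0.18 (SE, adjusted p = 0.735). In TPM the groups did overlap, since MI4KO replicate 2 (311 TPM) lay above MI4OE replicate 1 (297 TPM). Of 17 tested cofactors of the particle, 5 were higher and 12 lower, with a median of -0.09.

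Ubiquitin and its activating enzymes had 4 of 6 genes higher and a median of 0.02. The ubiquitin-conjugating E2 enzymes had 4 of 23 genes higher and 19 lower, with a median of -0.17. The chaperone ATPase p97 (Vcp) and its cofactors had 2 of 9 genes higher and a median of -0.08. In CPM the groups did not overlap for 4 of the 23 E2 genes (17.4%) and for 1 of the 9 genes of p97 and its cofactors. The same held for 1 of the 11 regulators and for none of the proteasome cofactors, muscle ligases or ubiquitin and E1 genes. The share was 12.8% over all genes tested.

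Of 17 ubiquitin ligases known from muscle, 3 were higher and 14 lower, with a median of -0.17. An unadjusted p under 0.05 was reached by 1 of the 17, against 7.58% of all genes tested. This was Trim63, which encodes MuRF1, a ligase of muscle wasting. Trim63 was at 810, 262 and 203 CPM in MI4KO and 158, 185 and 204 CPM in MI4OE, and MI4KO replicate 1 alone was far above the rest. Its log2 fold change was -1.22 ± 0.50 (SE, adjusted p = 0.626), and it was -0.36 without that library. In MI4KO replicate 1 the 17 cap genes had a median deviation of 0.21 and the 14 core genes 0.16, and Trim63 was at its highest there. In MI4OE replicate 1 the cap had 0.01 and the core 0.38, while Trim63, at 158 CPM, was at its lowest of the 6 libraries. A relation between Trim63 and these genes was not tested.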

How the data were processed

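RNA from 6 gastrocnemius libraries was sequenced as single 50-base reads from stranded, mRNA-enriched libraries. Per the labels and methods, bcl2fastq 2.17 was used for conversion of base calls, and reads were mapped by the authors with Bowtie2 2.1.0 to a UCSC transcript set and quantified with RSEM 1.2.15; the genome build is not given in the sources used here. The deposited expected counts are estimated counts per gene and transcript, not normalized. The deposited TPM values are adjusted for length by RSEM, as are the deposited isoform percent values. The authors' tables of fold changes and p-values were not used. The count table and single-library files held the same counts (0 genes differed), and 0 columns were unmapped.

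The members and gene lists were chosen with earlier results of these data known. Groups follow the genotype label. The replicate numbers follow the order in which the samples are listed and are not part of the labels. After rounding of the expected counts, models were fitted in R 4.3.3 by edgeR 4.0.16 (filterByExpr with a minimum count of 10 and total of 15, which kept 12660 of 24054 genes, TMM, quasi-likelihood test, Benjamini-Hochberg over all genes tested). CPM values used TMM-scaled library sizes. Alternative tests were edgeR's exact test, DESeq2 1.42.0, and limma 3.58.1 on log2(TPM + 1) and log2(TPM + 0.1). Alternative scalings were RLE factors, plain total counts, and TMM computed after removal of the 100 most abundant genes. Filtering was omitted or set at 1 CPM on average, and each library was left out in turn. The fits were tested on simulated data. Genes given in every library were members with an unadjusted p under 0.05, the 3 with the largest and the 3 with the smallest log2 fold change, the catalytic subunits, Psme1 to Psme4, Irf4, the immunoproteasome genes, Nfe2l1, and listed pathway genes with an unadjusted p under 0.05. Psmf1, Psmd4 and Psmd8 were added after their values were seen. Depth was 18828605 to 29239585 expected counts per library, and 3 libraries per group set the precision of each difference.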

Additional observations from a re-analysis of the deposited data

How the results depend on the processing

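No member had an adjusted p under 0.05 in any of the 15 alternatives, but most of these fits called so few genes that this says nothing about stability. The count over all genes moved with the test, with 3 genes by edgeR's quasi-likelihood test, 111 by DESeq2 and 112 by edgeR's exact test, and 1 without MI4KO replicate 1. The 1.5-fold criterion with its unadjusted p was met by 841 genes, 468 with limma on log2(TPM + 1), and 1314 without MI4OE replicate 2. The 1 member at that criterion, Psme2b, became 0 with no filter, with DESeq2 and with a mean CPM of at least 1, where it was not tested, and 0 to 1 with a library left out.

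With a library left out, the medians of the log2 fold change ran from -0.09 to 0.13 over all members, from -0.05 to 0.18 for the alpha ring, -0.08 to 0.26 for the beta ring, -0.10 to 0.16 for the cap ATPases, -0.14 to 0.02 for the non-ATPases, -0.031 to 0.19 for the activators and inhibitor, and -0.09 to 0.16 for the chaperones. The genes called numbered 1 to 4 and those at 1.5-fold 590 to 1314. Single genes changed sign within these ranges: Psmb5 from -0.17 to 0.27, Psmb6 from -0.058 to 0.26, Psmb7 from -0.18 to 0.076, Psme1 from -0.024 to 0.61, Psme2 from -0.12 to 0.23 and Psmb10 from -0.45 to 0.26. Psmb7 was also 0.061 with total counts and 0.027 with limma at either pseudocount, and Psme3 was 0.00078 with total counts. Irf4 was 12.61 with an adjusted p of 0.0587 without MI4KO replicate 1.

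No paired analysis was possible because the labels give the groups no shared replicate numbers, so nothing pairs the libraries. With 3 libraries per group, intervals of many members remain wider than 1.5-fold. The cause of these shifts was not tested.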
